A study of Mus musculus with 6 samples.

Results

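Pnliprp1 encodes pancreatic lipase-related protein 1, a relative of pancreatic lipase, and it was set here beside 6 genes for digestive enzymes of the exocrine pancreas in mouse liver and liver tumour RNA. The members were taken by gene symbol from the array annotation, with Pnliprp1 included because its ratios were already known to be high in these data. Of the 7 genes, 6 were measured, among 9908 genes named on the array: Pnliprp1, Pnlip, Clps, Cel, Ctrb1 and Prss2. Cpa1 had no probe under its own symbol. The measured members had 1 probe of 1 spot each.

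All RNA came from 39-week-old mice of the C3H/HeNCrlBR(C3He) background strain that had received diethylnitrosamine (DEN), a chemical that initiates liver tumours. The groups were DEN-PB WT tumour and DEN-PB WT liver, from wild-type (WT) mice that also received phenobarbital (PB), DEN-PB CAR-KO liver, and DEN-only CAR-KO liver, without PB. PB is a drug that activates the nuclear receptor CAR and promotes liver tumours, and it was given in drinking water. CAR-KO mice lack CAR, the product of Nr1i3. The RNAs were hybridised in 3 dye-swapped pairs of 2-colour arrays, 6 arrays in all: WT liver against CAR-KO liver, DEN-PB CAR-KO liver against DEN alone, and WT tumour against CAR-KO liver. DEN-PB CAR-KO liver was on every array, so the 3 comparisons share that group. The sources used here do not say how many animals each RNA held or how many tumours were sampled, nor if the arrays of a pair shared an extract. The errors and p-values thus cover the spread of dye-swapped arrays, which may be technical.

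The exocrine pancreas is made mostly of acinar cells, which secrete digestive enzymes into the gut. Pancreatic lipase (Pnlip) splits dietary triglycerides with the help of its cofactor colipase (Clps). Bile salt-dependent lipase (Cel) splits cholesterol esters and other lipids, chymotrypsinogen B (Ctrb1) and trypsinogen 2 (Prss2) are precursors of proteases, and carboxypeptidase A1 (Cpa1) removes residues from the ends of peptides. Pnliprp1 is made by the same acinar cells and resembles pancreatic lipase in sequence, but little lipase activity has been found for it. Healthy liver is not known as a main source of any of these enzymes.

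In the RefSeq annotation, Pnlip, Pnliprp1 and Pnliprp2 are neighbouring genes, with 2 non-coding genes between Pnlip and Pnliprp1 and 0 genes between Pnliprp1 and Pnliprp2. The upstream sequences of Pnliprp1 and Pnlip are shown because the pair lie side by side and had different ratios on these arrays. Each is the 250 bases before the gene's start in RefSeq (GRCm38.p6), from the plus strand, at chr19:58728637-58728886 for Pnliprp1 and chr19:58670115-58670364 for Pnlip. Capitals mark a match to a TATA box core.
Pnliprp1: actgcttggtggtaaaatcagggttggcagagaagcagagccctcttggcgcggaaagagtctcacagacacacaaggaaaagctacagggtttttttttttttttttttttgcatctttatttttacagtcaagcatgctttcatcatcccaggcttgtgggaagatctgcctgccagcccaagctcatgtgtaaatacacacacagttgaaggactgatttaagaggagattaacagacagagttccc
Pnlip: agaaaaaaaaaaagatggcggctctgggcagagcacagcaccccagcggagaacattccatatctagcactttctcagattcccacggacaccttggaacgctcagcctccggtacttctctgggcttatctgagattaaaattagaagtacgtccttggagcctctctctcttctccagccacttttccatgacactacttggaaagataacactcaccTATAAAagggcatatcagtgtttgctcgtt

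Both strands were searched for the TATA box core TATAAA, for CACCTG and TTTCCC, which are both parts of the site of the acinar factor PTF1, and for the nuclear receptor half-sites AGGTCA and AGTTCA. The Pnliprp1 window held 0 matches to any of them. The Pnlip window held 1, a TATAAA that starts 30 bases before the gene's start. Among 32851 promoters of the same length, TATAAA was present in 12.4%, CACCTG in 17.2%, TTTCCC in 21.9%, AGGTCA in 14% and AGTTCA in 11.8%. In the other windows available, Cel held 4 matches to CACCTG, 1 to TTTCCC and 2 to AGGTCA, while Prss2 held 1 to TATAAA, 1 to CACCTG, 2 to TTTCCC and 1 to AGGTCA. Cpa1 held 1 match to TTTCCC and 2 to AGTTCA, the only matches to AGTTCA in these windows. Ctrb1 held 1 match to TTTCCC and Pnliprp2 held 1 to CACCTG. No matches overlapped in these windows. A match is a description of the letters and not evidence of a bound site.

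Pnliprp1 stood far above the acinar enzyme genes in WT tumour and in WT liver, and among them in the PB comparison. Its fitted log2 ratio was 4.12 ± 0.15 (SE, 2 arrays), or 17.4-fold higher, in DEN-PB WT tumour relative to DEN-PB CAR-KO liver. In WT liver relative to CAR-KO liver, both DEN-PB, it was 2.35 ± 0.15 (SE, 2 arrays), or 5.09-fold higher. In DEN-PB relative to DEN-only CAR-KO liver it was 0.29 ± 0.15 (SE, 2 arrays). Because Pnliprp1 was chosen for these ratios, they are given without a test. The values of the 2 arrays of each pair had the same sign.

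In the pair of WT liver and CAR-KO liver, which asks what depends on CAR after DEN and PB, Pnliprp1 had log2 ratios of 2.50 on array 1 and 2.19 on array 2. Its mean signals, in scanner units before background correction, were 487.6 and 723.7 in WT liver, against 121.4 and 205.8 in CAR-KO liver. Both WT readings were above both CAR-KO readings. Its ratio ranked 7 among 20743 probes tested.

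The acinar enzyme genes did not share that ratio. Pnlip had log2 ratios of -0.36 and 0.11 for WT relative to CAR-KO liver, with a fitted value of -0.13 ± 0.16 (SE). Colipase (Clps) had -0.38 and -0.27, with a fitted value of -0.33 ± 0.16. The sign was the same on both arrays for Clps and differed between arrays for Pnlip. Bile salt-dependent lipase (Cel) had 0.21 and -0.06, with a fitted value of 0.08 ± 0.18. Of the protease precursors, Ctrb1 had -0.13 and -0.04, with a fitted value of -0.09 ± 0.17. Prss2 had -0.26 and -0.11, with a fitted value of -0.18 ± 0.16.

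Of the 5 acinar enzyme genes, 0 were called between WT and CAR-KO liver at a limma adjusted p under 0.05 over all probes, where 0.0868% of all probes tested were called. All 5 had an adjusted p of 1, and 0 of the 5 had an unadjusted p under 0.05. Their median log2 ratio was -0.13, against -0.02 for all probes. The highest upper 95% limit among them was that of Cel, at a log2 ratio of 0.49 or 1.41-fold, below the ratio of Pnliprp1 on either array. On array 1 Pnliprp1 exceeded the median of the 5 genes by 2.76 and the highest of them by 2.29 on the log2 scale. On array 2 these gaps were 2.25 and 2.09.

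In DEN-PB relative to DEN-only CAR-KO liver, which asks what PB changes without CAR, Pnliprp1 had log2 ratios of 0.12 and 0.46. Its mean signals were 128.8 and 179.9 in DEN-PB CAR-KO liver, against 159.2 and 81.73 in DEN-only CAR-KO liver. The last of these was not well above background, the single reading of Pnliprp1 among 12 of which that was so. The signals of the groups overlapped, and they were read in different dyes.

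The acinar enzyme genes had ratios of the same size in that comparison. Prss2 had log2 ratios of 0.34 and 0.53, with a fitted value of 0.44 ± 0.16 (SE). It had an unadjusted limma p of 0.0296 and an adjusted p of 1 over all probes. Trypsinogen genes are near-copies of each other, so a Prss2 probe can also take up RNA of its relatives. Clps had 0.15 and 0.39, and Ctrb1 had 0.01 and 0.43. Pnlip had 0.28 and -0.02, and Cel had -0.16 and 0.28. Fitted values of all 5 were positive, with a median of 0.22 against -0.01 for all probes, and 0 of 5 were called, where 0% of all probes tested were called. The ratio of Pnliprp1 minus their median was -0.03 on array 1 and 0.07 on array 2, and on both arrays it was below the highest of them.

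The tumour pair set WT tumour against CAR-KO liver. Its groups differ in genotype and in tissue, which cannot be told apart in this pair. Pnliprp1 had log2 ratios of 3.86 on array 1 and 4.38 on array 2. Its mean signals were 1986 and 4539 in WT tumour, against 161.1 and 385.4 in CAR-KO liver. On array 2 these were read over a median local background of 288 (Cy3) and 299 (Cy5), against 53 to 62 on the other 5 arrays. Its ratio ranked 4 among 20744 probes tested.

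Clps had log2 ratios of -0.51 and -0.44 in WT tumour relative to CAR-KO liver, with a fitted value of -0.48 ± 0.16 (SE) and a limma adjusted p of 0.14. This was the lowest adjusted p among the 5 acinar enzyme genes. Pnlip, whose product works with colipase, had 0.51 and -0.13, with a fitted value of 0.19 ± 0.16. The arrays disagreed in sign for Pnlip and agreed for Clps. Cel had 0.10 and -0.18, with a fitted value of -0.04 ± 0.18. Ctrb1 had -0.59 and -0.10, with a fitted value of -0.35 ± 0.17. Prss2 had -0.12 and -0.41, with a fitted value of -0.27 ± 0.16. The signs of the fitted values of Pnlip, Cel and Ctrb1 flipped when arrays were centred on their median in place of loess.

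Of the 5 genes, 0 were called in WT tumour relative to CAR-KO liver, where 3.35% of all probes tested were called, and 1 (Clps) had an unadjusted limma p under 0.05. Their median log2 ratio was -0.27, against -0.01 for all probes. The highest upper 95% limit was that of Pnlip, at a log2 ratio of 0.55 or 1.47-fold. On array 1 Pnliprp1 exceeded the median of the 5 genes by 3.98 and the highest of them by 3.35 on the log2 scale. On array 2 these gaps were 4.56 and 4.48. The plot of ratios by array shows the gap on all 4 arrays that held WT RNA, and its absence on the other 2. The size of the Pnliprp1 ratio depended on the processing. Without background subtraction it was 3.07 in WT tumour and 1.89 in WT liver relative to CAR-KO liver. From the authors' processed signals, which differ in both the background step and the normalization, it was 4.93 and 3.21. The ratios of Pnlip also depended on the processing. In the authors' ratios Pnlip was 0.94 on array 1 and -0.34 on array 2 of the tumour pair, against 0.51 and -0.13 here. The 95% limits given for the acinar enzyme genes thus hold only for the processing used here.

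**Figure D1:**
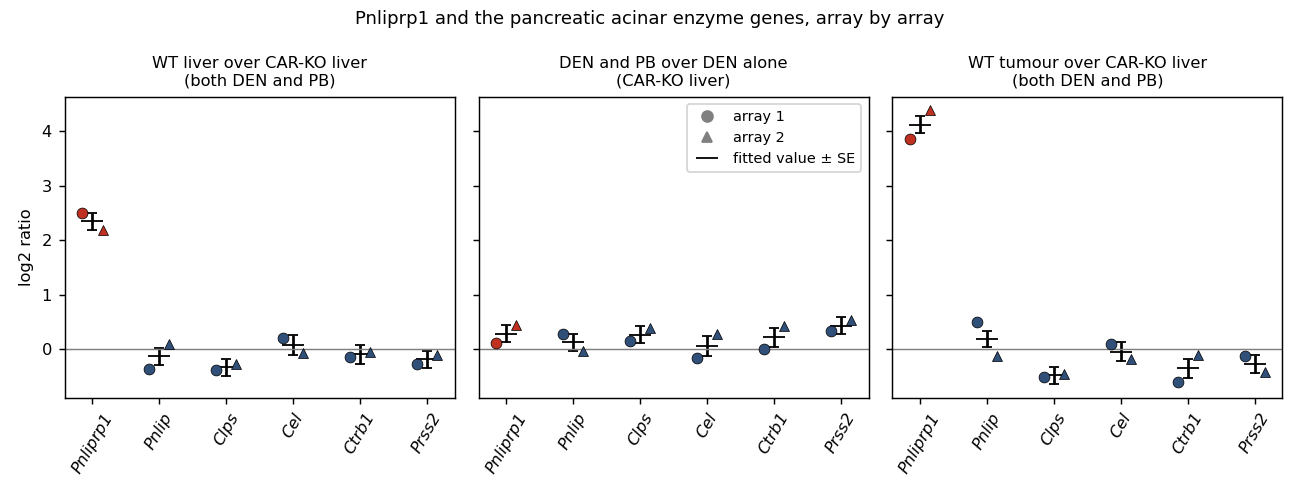
Log2 ratio (vertical axis) of Pnliprp1 (red) and of 5 pancreatic acinar enzyme genes (blue) on array 1 (circles) and array 2 (triangles) of each dye-swapped pair, with the fitted value and its SE as black bars. Pnliprp1 lies at 2.19 to 2.50 in WT liver relative to CAR-KO liver and at 3.86 to 4.38 in WT tumour relative to CAR-KO liver, and within the range of the acinar genes on both arrays of the PB comparison.

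WT tumour was set against WT liver indirectly, as the difference of their ratios to CAR-KO liver. Pnliprp1 was 1.77 ± 0.22 (SE) higher on the log2 scale in WT tumour than in WT liver, or 3.42-fold. The 5 acinar enzyme genes lay between -0.26 (Ctrb1) and 0.32 (Pnlip), with a median of -0.12. Of these, 0 were called, where 0% of all probes tested were called, and the smallest limma adjusted p was 0.659. The highest upper 95% limit was that of Pnlip, at 0.83 on the log2 scale or 1.78-fold. In whole tissue, fewer cells of a type and less RNA per cell cannot be told apart.

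Levels were also compared by channel, after loess within arrays and quantile scaling of the average intensities between arrays. Pnliprp1 had log2 levels of 10.70 and 10.90 in WT tumour and 9.22 and 9.26 in WT liver. In DEN-PB CAR-KO liver its 6 readings ran from 6.51 to 7.07, with a median of 6.75 and a mean of 6.77 ± 0.18 (SD, 6 readings), and in DEN-only CAR-KO liver its readings were 6.32 and 6.61. The levels of WT tumour, WT liver and CAR-KO liver did not overlap, while those of DEN-PB CAR-KO liver and after DEN alone did. The order was thus WT tumour, WT liver and then both CAR-KO groups, whose readings overlapped.

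The levels of the acinar enzyme genes had no such order. Pnlip averaged 6.50 in WT tumour, 6.38 in WT liver, 6.51 in DEN-PB CAR-KO liver and 6.57 in DEN-only CAR-KO liver on the log2 scale. Clps averaged 7.19, 7.44, 7.65 and 7.24 in the same 4 groups, in that order. For Pnlip and Clps the readings of WT tumour overlapped those of DEN-PB CAR-KO liver. The level of Cel spread most, from 7.71 to 9.21 over the 6 readings of DEN-PB CAR-KO liver, and its readings in WT tumour and WT liver fell within that range. Ctrb1 was 9.31 and 9.42 in WT tumour, below its lowest reading of 9.52 in DEN-PB CAR-KO liver. Prss2 was 6.62 and 6.90 in WT tumour and 6.74 and 6.86 in WT liver, against 6.97 to 7.5 in DEN-PB CAR-KO liver. Neither gene was called in the fit on ratios, which compares the channels of 1 array. The signals of all 5 genes were well above background in all 12 readings each, as were 84.4% to 98.7% of all spots in each channel. Their percentiles of brightness ran from 22.5 (Pnlip) to 93.9 (Ctrb1), against 68.1 for Pnliprp1. Pnlip was thus dim, with signals of 340.6 and 328.5 over local backgrounds of 288 and 299 on array 2 of the tumour pair. This limits how well its ratios are measured.

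**Figure D2:**
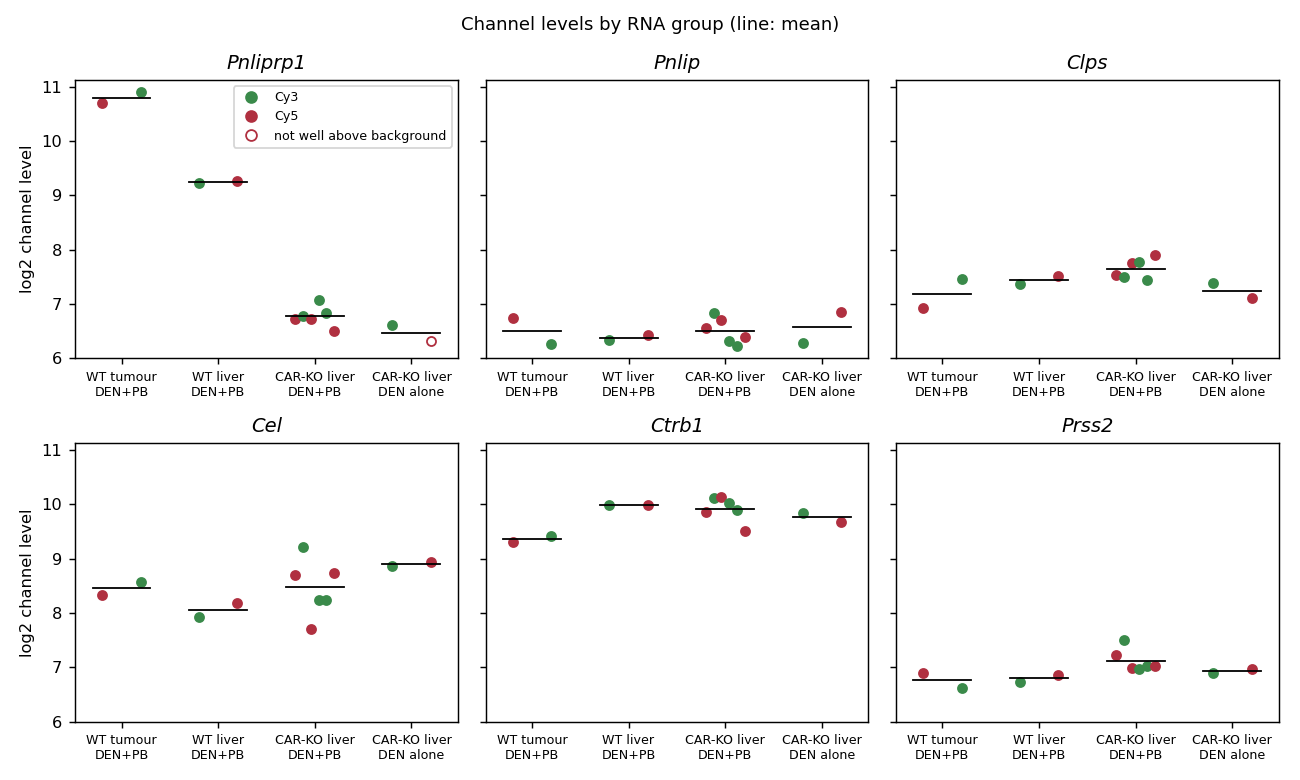
Log2 channel level (vertical axis) of 6 genes in WT tumour, WT liver, DEN-PB CAR-KO liver and DEN-only CAR-KO liver, with 1 point per array channel (green for Cy3, red for Cy5), open where the spot was not well above background, and a line at the mean. Pnliprp1 averages 10.80 in WT tumour, 9.24 in WT liver, 6.77 in DEN-PB CAR-KO liver and 6.47 after DEN alone, while the levels of the other genes overlap between WT and CAR-KO groups or differ by less than 1 on this scale.

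A further 8 probes without a gene symbol in the tables used are described on the array as pancreatic enzymes, and they were read by description after earlier results were known. The probe described as a carboxypeptidase A1 homolog, printed 10 times per array, had fitted log2 ratios of -0.03 ± 0.20 in WT tumour and -0.10 ± 0.20 in WT liver relative to CAR-KO liver (SE, 2 arrays each). With PB relative to DEN alone it was 0.29 ± 0.20. The probe described as pancreatic amylase 2 had -0.08 in WT tumour and -0.10 in WT liver relative to CAR-KO liver. A second probe described as pancreatic triacylglycerol lipase had 0.06 and -0.02. These ratios were close to those of the acinar members with symbols.

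In WT tumour relative to CAR-KO liver, 1 of the 8 was called higher and 1 lower, where 2.52% of all probes tested were called higher and 0.829% lower. The probe described as elastase 1, a digestive protease, rose, with log2 ratios of 1.15 and 2.2, a fitted value of 1.67 ± 0.30 and a limma adjusted p of 0.0309. Its signals were 243.7 and 894.3 in WT tumour, against 177.9 and 348.8 in CAR-KO liver on the same arrays, and 4 of its 6 readings in DEN-PB CAR-KO liver were well above background. Without array 1 of the tumour pair its ratio was 2.54, and without array 2 it was 0.80. Leaving out either PB array ended the call, with an adjusted p of 0.0797.

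The probe described as caldecrin, a chymotrypsin that cuts trypsinogens, fell, with log2 ratios of -0.73 and -1.34, a fitted value of -1.03 ± 0.15 and a limma adjusted p of 0.014. Leaving out either PB array ended this call too, with an adjusted p of 0.0572, and without background subtraction the adjusted p was 0.0794. With PB, caldecrin had 0.99 and 0.51, with a fitted value of 0.75 ± 0.15 and an adjusted p of 1. The other 6 described probes lay between -0.66 and 0.21 in WT tumour relative to CAR-KO liver, and the lowest of them, carboxypeptidase B1, had an adjusted p of 0.0718.

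A longer list of pancreatic acinar genes was measured in 20 of 33 members, among them further enzymes, the granule proteins Gp2, Sycn and Zg16, and the acinar transcription factors Ptf1a, Bhlha15 and Rbpjl. In the main analysis 0 of 20 were called in any comparison. Of all probes tested, 3.35% were called in WT tumour and 0.0868% in WT liver relative to CAR-KO liver, and 0% in the other comparisons. The median log2 ratio of the 20 genes was -0.23 in WT tumour and -0.08 in WT liver relative to CAR-KO liver. With PB relative to DEN alone it was 0.10. Elastase 2A (Cela2a) was lowest in both comparisons of WT with CAR-KO tissue, at -0.998 in WT tumour (limma adjusted p = 0.0561) and -0.68 in WT liver, and highest with PB relative to DEN alone, at 0.75. Ptf1a, which drives the acinar enzyme genes, was the highest in WT liver at 0.24 and the lowest with PB at -0.12.

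Pnliprp2, the gene next to Pnliprp1, was the highest of this list in WT tumour relative to CAR-KO liver, with a fitted log2 ratio of 0.35 (limma adjusted p = 0.272). It had 0.03 in WT liver relative to CAR-KO liver and 0.25 with PB relative to DEN alone, and 7 of its 12 readings were well above background. Pnlip and Pnliprp2, on either side of Pnliprp1 in the genome, thus had fitted ratios of at most 0.35 in the comparisons with CAR-KO liver, against 4.12 and 2.35 for Pnliprp1. Without array 2 of the tumour pair, 9 of the 20 genes were called in WT tumour relative to CAR-KO liver, 3 higher (Bhlha15, Pla2g1b and Pnliprp2, the last at 0.68) and 6 lower. Under that setting 1795 of all 20729 probes tested were called higher and 2907 lower, against 523 and 172 of 20744 with all arrays. Without array 1, Cela2a was at -1.51, a value that rests on the remaining array.

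Cells of the pancreatic islet and of the intestine were read by lists of markers. No list was made for the liver's own cells other than hepatocytes. Of 10 islet genes, 8 were measured and 0 were called, with medians of -0.16 in WT tumour, -0.02 in WT liver and -0.02 with PB. The shares of all probes called were 3.35% in WT tumour, 0.0868% in WT liver and 0% with PB. The highest and lowest islet genes in WT tumour were Ins1 at 0.30 and Ins2 at -0.80. Without array 2 of that pair Ins2 was at -1.75, a value that rests on the remaining array. Ins1 was also highest in WT liver at 0.11 and with PB at 0.16, and the lowest were Ins2 at -0.19 and Sst at -0.14. Of 12 intestinal genes, 7 were measured and 2 were called higher in WT tumour relative to CAR-KO liver, where 2.52% of all probes tested were called higher. These were villin (Vil1), a protein of microvilli, at 2.19 (adjusted p = 0.00135), and Apoa4, a lipoprotein component that mouse liver also makes, at 2.31 (adjusted p = 0.00372). The intestinal transcription factor Cdx1 was the lowest of the list in the same comparison, at -0.67, and the other 4 genes lay between -0.38 and 1.16. The highest of these 4, the fatty acid-binding protein Fabp2, had an adjusted p of 0.0531 and was called under 5 of the 13 alternatives, at adjusted p between 0.0045 and 0.0486. In WT liver relative to CAR-KO liver the 7 genes lay between -0.11 (Cdx1) and 0.82 (Apoa4), and with PB between -0.71 (Fabp2) and 0.59 (Apoa4). The part of other cell types in the Pnliprp1 ratio was not tested.

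The tissue label was read against hepatocyte genes, of which 5 of 11 were measured. The plasma protein genes F2, Trf and Apoa1 lay at or above the 99th percentile of brightness, and 0 of the 5 were called in any comparison. Of all probes tested, 3.35% were called in WT tumour, 0.0868% in WT liver and 0% in the other comparisons. Relative to CAR-KO liver the fitted ratios of the 5 genes ran from -0.55 (Trf) to -0.12 (Apoa1) in WT tumour. In WT liver they ran from -0.38 (Ttr) to -0.03 (F2). With PB relative to DEN alone Trf was highest at 1.22 and F2 lowest at -0.22. Nr1i3, the gene deleted in CAR-KO mice, had 1.81 ± 0.16 in WT tumour (limma adjusted p = 0.00206) and 0.79 ± 0.16 in WT liver relative to CAR-KO liver (adjusted p = 0.417). The sources used here do not say whether its probe lies in the deleted part.

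A list of lipases and related enzymes that are not made mainly by the pancreas, which also holds the amylase gene Amy1, was measured in 12 of 15 members. Of all probes tested, 2.52% were called higher in WT tumour relative to CAR-KO liver. Only lipoprotein lipase (Lpl) was called in this list, at 1.97 in that comparison (limma adjusted p = 0.00366). Lpl releases fatty acids from circulating triglycerides. It was also the highest in WT liver relative to CAR-KO liver, at 0.94 (adjusted p = 0.579), and this was called in 4 alternatives: without either array of the tumour pair (adjusted p = 0.00865), with array weights (0.0425) and in a fit to that pair alone (0.0288). The lowest in WT tumour was Amy1 at -0.47, and the lowest in WT liver was Pnpla8 at -0.28. Pnliprp1 lay above all 12 in both comparisons. With PB relative to DEN alone 5 of the 12 lay above it, and lysosomal acid lipase (Lipa) was the highest at 0.51.

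Genes of drug metabolism that CAR and PB are known to induce were the list whose range held Pnliprp1 in both comparisons of WT with CAR-KO tissue. Of 28 such genes 23 were measured, and 17 were called higher in WT tumour relative to CAR-KO liver, where 2.52% of all probes tested were called higher. In WT liver relative to CAR-KO liver 10 were called higher, where 0.082% of all probes tested were called higher. None was called lower in either, where 0.829% and 0.00482% of all probes tested were called lower, and 0 were called in DEN-PB relative to DEN-only CAR-KO liver. Their median log2 ratio was 1.66 in each comparison of WT with CAR-KO tissue and 0.10 with PB. This list was chosen with earlier results of these data known and includes genes that those results had shown. From the authors' processed signals 0 of all probes were called in any comparison, and so none of the calls named here. The count in WT liver was 6 when either PB array was left out, where 8 of all 20743 probes tested were called higher. With either tumour array left out 1 was called with PB, where 6 of all 20742 probes tested were called higher. Counts without an array of the WT liver pair are left out, because they rest on 1 array of that pair.

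In WT tumour relative to CAR-KO liver 2 of the 23 lay above Pnliprp1, Cyp2b13 at 4.56 and Cyp2b9 at 4.23. In WT liver relative to CAR-KO liver 5 of the 23 did, led by Cyp2b9 at 4.76. The lowest were Sult1d1 at 0.38 in WT tumour and Cyp2c38 at 0.01 in WT liver. With PB in CAR-KO liver the list ran from -0.41 (Sult1d1) to 1.42 (Cyp3a11). In WT tumour relative to WT liver, indirectly, its median was 0.38 and its highest gene was Gstm2 at 1.06. There 0 of the 23 lay above Pnliprp1, at 1.77, while Vil1 of the intestinal list was at 1.79. The plot of gene lists shows Pnliprp1 within the range of the drug metabolism genes in both comparisons with CAR-KO liver. In both it lay outside the range of every pancreatic, hepatocyte and lipase list.

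**Figure D3:**
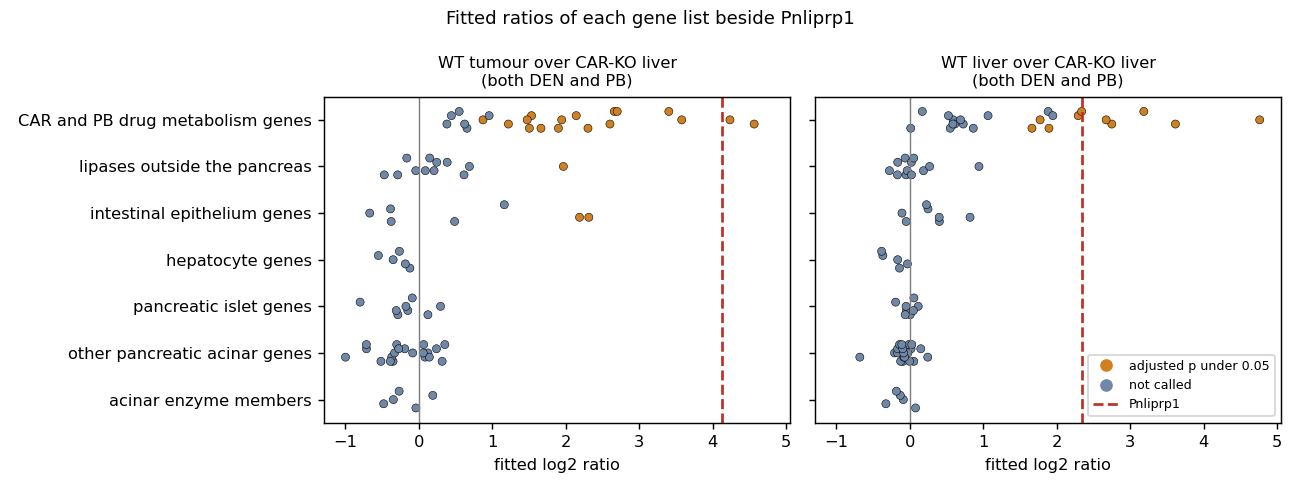
Fitted log2 ratio (horizontal axis) of the genes of each list in WT tumour relative to CAR-KO liver (left) and WT liver relative to CAR-KO liver (right), 1 point per gene, orange where called at an adjusted p under 0.05. The dashed red line is Pnliprp1, at 4.12 and 2.35, which all 5 acinar enzyme genes and all 20 other acinar genes lie below.

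The genes most like Pnliprp1 were sought by Euclidean distance over its 6 log2 ratios, among 9071 other genes with a signal well above background on every array. The nearest was Cyp2c55, a cytochrome P450 of fatty acid and drug oxidation, at a distance of 1.06, against a median of 6.73 over all candidates. Its fitted ratios were 3.58 in WT tumour and 2.67 in WT liver relative to CAR-KO liver, and 0.06 with PB relative to DEN alone. Gstm2, a glutathione transferase, was next at a distance of 1.19, with 3.40, 2.34 and 0.23 in the same order. Both were below Pnliprp1 in WT tumour and close to it or above it in WT liver.

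The ammonium transporter Rhbg followed at a distance of 1.43, with fitted ratios of 3.24 in WT tumour, 2.17 in WT liver and 0.37 with PB. Nkd1, an antagonist of Wnt signalling that Wnt itself induces, was at 1.77, with 3.30, 1.48 and -0.01. Glutamine synthetase (Glul), a marker of the hepatocytes around the central vein, was at 1.81, with 3.20, 1.77 and 0.62. Cyp2b13, Ly6d and Cyp2c39 completed the 8, at distances of 1.96, 2.16 and 2.31. These genes were selected by the same ratios, so their likeness is a description with no test, and the 6 ratios share the CAR-KO group with PB.

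**Figure D4:**
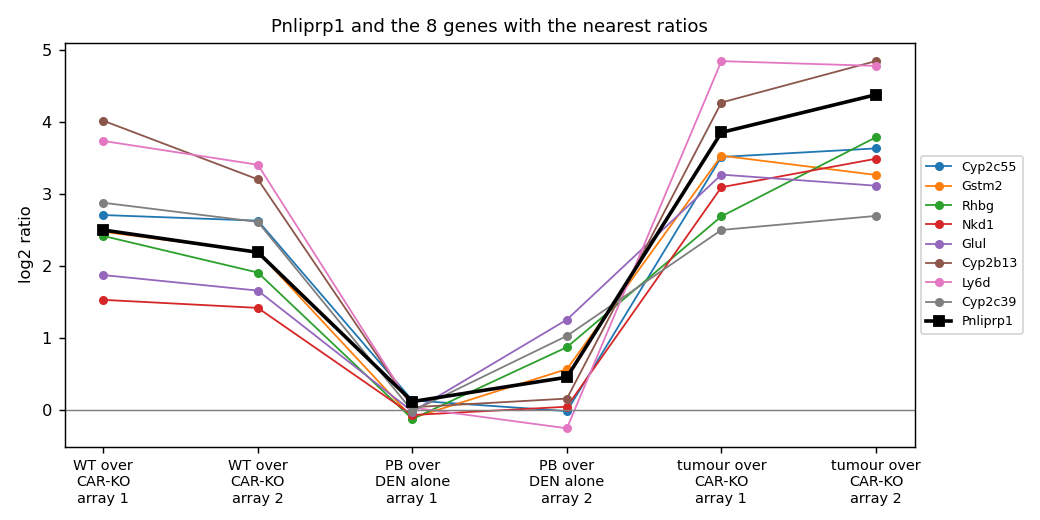
Log2 ratio (vertical axis) of Pnliprp1 (black squares) and of the 8 genes with the nearest ratios (coloured circles) on each of the 6 arrays (horizontal axis), joined by lines to guide the eye. All 9 genes are high on the 4 arrays with WT liver or WT tumour, while on the PB arrays they lie between -0.25 and 1.26.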

How the data were processed

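The deposited scanner files give each spot's mean signal and the median of its local background, in intensity units without normalization, per the file headers. They also hold processed intensity values and a log10 ratio of red over green made by the authors with Agilent Feature Extraction (7.1.1 for 5 arrays and 7.5.1 for array 2 of the tumour pair, per the file headers; 7.5 per the submitters' processing notes). The deposited value table equals that log10 ratio. Other deposited columns flag spots.

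Signals were corrected with normexp (offset 50) and loess within arrays (R 4.3.3, limma 3.58.1), flagged spots were set to missing, and spots of a probe were averaged. Ratios were turned by the dyes in the labels. Log2 ratios of all probes with at least 1 channel well above background on at least 2 arrays were fitted with lmFit and eBayes on all 6 arrays, with 3 contrasts and a dye effect (2 residual and 5.4 prior degrees of freedom). The 2-sided p-values were adjusted over all probes tested (Benjamini-Hochberg), with calls at under 0.05. All 6 measured members passed the filter. Replicate numbers within a pair follow accession order.

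Symbols came from the accession or bracketed symbol of a probe through RefSeq (10124 of 20868 probes), and a gene of several probes was represented by the brightest. Promoters are from RefSeq, whose table held no entry used for Clps. Other genes were named where called in a list, where highest or lowest in it, or among the 8 nearest to Pnliprp1. Bhlha15 and Pla2g1b were named after their values were seen. Called drug metabolism genes are given by count. The members and lists were chosen with earlier results of these data known. Alternatives covered the background step, the normalization, the filter, array weights, separate fits per pair and leaving out each array. The number of arrays limits the precision.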

Additional observations from a re-analysis of the deposited data

How the results depend on the processing

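The count of acinar enzyme genes called was 0 in all 4 comparisons under each of 13 alternatives. The processed signals called 0 of all probes in all 4 comparisons, and with PB no alternative called more than 6. In such cases a count of 0 among 5 genes was nearly given and shows little about robustness. Pnliprp1 kept its sign under each of the 13 alternatives. Without background subtraction its log2 ratio was 1.89 in WT liver and 3.07 in WT tumour relative to CAR-KO liver, and 1.18 in WT tumour relative to WT liver. From the authors' processed signals it was 3.21 and 4.93, and 0.81 with PB relative to DEN alone. Without each array in turn it lay between 2.29 and 2.41, 4.02 and 4.22, and 0.25 and 0.33, and between 1.67 and 1.87 in the indirect comparison.

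The sign of an uncalled acinar ratio turned in 15 cases, each 1 gene in 1 comparison under 1 alternative. Median centring gave Pnlip -0.073, Cel 0.20 and Ctrb1 0.16 in WT tumour relative to CAR-KO liver, and Cel 0.13 and Ctrb1 0.35 in WT tumour relative to WT liver. The processed signals gave Cel 0.0052 in WT tumour relative to CAR-KO liver and Prss2 0.047 in the indirect comparison, where no background subtraction gave Prss2 0.0014. Without each array in turn, Cel ran from -0.016 to 0.17 in WT liver and from -0.35 to 0.27 in WT tumour relative to CAR-KO liver, from -0.16 to 0.28 with PB and from -0.43 to 0.20 indirectly. Ctrb1 ran from -0.36 to 0.18 in WT liver relative to CAR-KO liver and from -0.53 to 0.016 indirectly, and Prss2 from -0.24 to 0.070 indirectly. The cause was not tested.

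Calls over all probes moved more. They ran from 0 to 93 in WT liver (18 in the main analysis), from 0 to 4702 in WT tumour (695) and from 0 to 2146 in the indirect comparison (0), with 0 in all 4 comparisons from the processed signals and the highest counts without an array of the tumour pair. With PB they ran from 0 to 6. In WT tumour 523 were higher and 172 lower, against 2367 higher and 1763 lower with median centring. Fits to each pair alone called 7 drug metabolism genes in WT tumour in place of 17. Of all 20744 probes tested, those fits called 35 higher and 3 lower in WT tumour. They raised the limma adjusted p of elastase 1 to 0.14, caldecrin to 0.262, Apoa4 to 0.072, Lpl to 0.0516 and Nr1i3 to 0.0558. With array weights elastase 1 had 0.0697 and caldecrin 0.0669. Median centring called 6 intestinal genes in place of 2, of which 3 were higher and 3 lower. It called 5 genes of the lipase list higher in place of 1. It also called 1 of the other acinar genes and 2 islet genes lower and 1 hepatocyte gene higher, in place of 0 each. All of these calls were in WT tumour relative to CAR-KO liver. Without array 2 of the tumour pair Vil1 was at 2.03, Apoa4 at 2.54, Lpl at 1.53 and Cdx1 at -1.25 there, values that rest on the remaining array. Alternatives for the other named genes were added after seeing the data. Each ratio compares the RNAs on the same array, so the fit was paired by array. No further pairing between arrays was possible because the labels give no replicate numbers. Some readings of Pnliprp1 and elastase 1 in CAR-KO liver were close to background, which limits how well their ratios are measured.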
